A study of Mus musculus with 8 samples.

Results

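Small nucleolar RNAs (genes named Snord and Snora) and small Cajal body RNAs (Scarna) were followed through RNA-seq libraries of mouse hippocampus taken before fear conditioning. A gene was included when its symbol began with Snora, Snord or Scarna followed by a digit. The rule found 149 of the 55188 genes in each deposited table, 98 Snord, 42 Snora and 9 Scarna genes. They carry 146 distinct symbols, since Snord80, Snora43 and Snora16a each have a pair of overlapping gene models. All 149 had the status OK in every library, so a 0 among them is a listed value and not a failed estimate marked as such.

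The libraries came from C57BL/6 mice labelled wild type (WT) or KO, in a study of Pyk2, the calcium-sensitive tyrosine kinase encoded by Ptk2b, and the labels describe all of the mice as transgenic. The labels do not say which allele the KO carries, nor the age or sex of the mice. Each group had 2 numbered units (WT1 and WT2, KO1 and KO2), and each unit had 2 technical replicates, called the first and second library here. A unit is treated as 1 animal (n = 2 per group), but the labels do not state that the numbers are separate mice, so p-values measure only the spread between these units. The comparison asks which of these RNAs differ between WT and KO hippocampus at baseline. Values are FPKM, fragments scaled by gene length and by library total. The RNA is bulk tissue RNA, in which fewer cells of a type and less RNA per cell cannot be told apart.

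As background, small nucleolar RNAs are short non-coding RNAs that steer chemical modification of other RNAs. Box C/D RNAs, mostly the Snord genes, bind fibrillarin and direct methylation of ribose in ribosomal RNA, while box H/ACA RNAs, mostly the Snora genes, bind dyskerin and direct the change of uridine to pseudouridine. Small Cajal body RNAs do the same for spliceosomal RNAs in the Cajal body and may carry both kinds of box. In mammals most are cut out of the introns of host genes, many of which encode ribosomal proteins or are non-coding RNAs such as Gas5, and a few are transcribed from promoters of their own.

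The sequences below are those of the members on which the values turn. They are the single GENCODE M21 transcripts of these genes on mm10 (GRCm38), written 5′ to 3′, with a C box (TGATGA within the first 20 bases), a D box (CTGA within the last 20 bases) or an ACA that stands 3 bases before the 3′ end in capitals. The first 4 are the members with the most fragments. For Scarna2, which is 414 bases long, the 250 bases at the 3′ end are shown. The deposited coordinates of all 149 members were those of GENCODE M21.
Scarna2 (chr3:108554338-108554587, minus strand): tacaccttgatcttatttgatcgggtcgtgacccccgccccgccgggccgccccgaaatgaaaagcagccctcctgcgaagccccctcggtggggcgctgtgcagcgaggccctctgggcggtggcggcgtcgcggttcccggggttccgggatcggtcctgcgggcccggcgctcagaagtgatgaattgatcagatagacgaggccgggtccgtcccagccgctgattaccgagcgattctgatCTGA
Snord91a (chr11:74905424-74905516, plus strand): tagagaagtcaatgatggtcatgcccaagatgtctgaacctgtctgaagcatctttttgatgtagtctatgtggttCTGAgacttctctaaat
Scarna13 (chr12:105031075-105031349, minus strand): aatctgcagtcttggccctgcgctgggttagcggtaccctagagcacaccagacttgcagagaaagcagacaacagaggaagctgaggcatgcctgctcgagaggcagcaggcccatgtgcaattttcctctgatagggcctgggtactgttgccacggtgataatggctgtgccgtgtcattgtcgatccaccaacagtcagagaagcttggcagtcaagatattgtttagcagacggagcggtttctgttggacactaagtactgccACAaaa
Scarna6 (chr1:87784556-87784820, plus strand): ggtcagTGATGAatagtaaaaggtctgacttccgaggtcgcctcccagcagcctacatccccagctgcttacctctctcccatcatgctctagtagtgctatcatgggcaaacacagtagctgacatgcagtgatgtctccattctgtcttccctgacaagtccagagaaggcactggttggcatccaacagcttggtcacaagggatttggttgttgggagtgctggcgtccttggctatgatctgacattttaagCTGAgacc

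The next sequences belong to 3 of the 5 members with the smallest p-values in the comparison of KO with WT, 2 of them C/D and 1 of them H/ACA by their boxes.
Snord47 (chr1:161038082-161038158, plus strand): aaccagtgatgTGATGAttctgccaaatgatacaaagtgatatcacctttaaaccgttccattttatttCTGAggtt
Snord89 (chr1:39548745-39548854, minus strand): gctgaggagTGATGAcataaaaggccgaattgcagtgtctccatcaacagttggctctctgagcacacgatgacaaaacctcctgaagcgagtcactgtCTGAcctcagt
Snora34 (chr15:98519716-98519853, minus strand): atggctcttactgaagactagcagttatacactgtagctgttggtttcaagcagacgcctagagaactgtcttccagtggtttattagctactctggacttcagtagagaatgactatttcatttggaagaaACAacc
The last set is shown for its length and repetition. Snord82, Snord34 and Snord104 are 70 bases long and reached high FPKM on 1 or 2 fragments. Snord116l1 stands for a repeated gene, none of whose Snord116l members was above 0 in any library.
Snord82 (chr1:86356261-86356330, minus strand): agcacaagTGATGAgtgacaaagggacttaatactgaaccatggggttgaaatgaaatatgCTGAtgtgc
Snord34 (chr7:45126601-45126670, minus strand): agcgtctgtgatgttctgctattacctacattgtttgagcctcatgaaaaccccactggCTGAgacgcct
Snord104 (chr11:106500993-106501062, plus strand): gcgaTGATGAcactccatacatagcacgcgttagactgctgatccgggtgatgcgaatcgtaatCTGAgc
Snord116l1 (chr7:59894620-59894713, minus strand): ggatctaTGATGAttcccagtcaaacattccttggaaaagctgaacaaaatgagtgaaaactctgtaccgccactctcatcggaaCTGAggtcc

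The boxes fit the names of the families. Of the Snord genes 69 of 98 (70.4%) held the C box, 97 (99%) the D box and 68 (69.4%) both, and none held the terminal ACA. Of the Snora genes 35 of 42 (83.3%) ended in the terminal ACA and none held the C box. The Scarna genes were mixed, with both C and D box in 4 of 9 (44.4%) and the terminal ACA in 2 (22.2%). Among 131058 GENCODE transcripts of at least 300 bases, searched on the same strand in the same windows, 0.453% held the C box, 8.92% the D box, 0.0443% both and 2.29% the ACA. These are matches of exact letters, and the letters of the C box were not in the window in Scarna2, Snord91a and Snord34.

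The libraries listed 26482 to 27871 genes above 0. Read as counting error alone, their confidence intervals imply 11.3 to 14.1 M fragments each, lowest in the second library of KO1. Ptk2b, the gene of the kinase under study, was higher in every library labelled KO. It stood at 277, 279, 264 and 274 FPKM there and at 232, 232, 203 and 202 FPKM in the WT libraries. The difference of 0.34 on the log2(FPKM + 1) scale (standard error (SE) 0.07) did not pass the threshold (limma, adjusted p = 0.158). A sum over the whole gene does not show whether an exon or the protein is lost, so directions below are given for the libraries labelled KO. Hippocampal neuron markers were present, with summed levels of 2182 to 2291 FPKM in WT and 2452 to 2603 FPKM in KO libraries, all 8 higher in KO. Markers of choroid plexus summed to 4214 to 7509 FPKM in WT and 286.9 to 1249 FPKM in KO libraries, all 10 lower in KO. Blood markers summed to 284.4 to 317.9 FPKM in WT and 148.7 to 158.0 FPKM in KO libraries. All 5 blood markers tested were lower in KO, and 2 of them passed the threshold in limma. Meningeal markers summed to 43.89 to 64.37 FPKM in WT and 19.38 to 40.11 FPKM in KO, all 6 lower. The part of these other tissues in any result below was not tested.

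Most values of these RNAs were 0. Of the 1192 values, 149 genes in 8 libraries, 194 (16.3%) were above 0. A library held 12 to 31 of the 149 members above 0, and 26482 to 27871 of all 55188 genes. The deposited interval of each value implies how many fragments lie behind it if the interval spans 2 SD of counting error on each side. By that reading 77 of the 194 values rested on less than 0.05 of a fragment, with FPKM as low as 7.55e-259 for Snora81. Another 82 rested on 0.05 to 1.5 fragments and 6 on more than 4.5, the highest being 11 fragments for Scarna2. Of the 117 values with at least 0.05 fragments, 66 (56.4%) were whole numbers within 0.05, and 40 of those were 1. The lower confidence limit was above 0 for 7 values. These fragment numbers are inferred and rough, and cover counting error only.

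The same single fragment stands for very different FPKM. For members with a whole implied number, 1 fragment was worth 33.1 to 43.2 FPKM at 70 nucleotides (nt) in Snord104, Snord34 and Snord82. It was worth 6.21 to 10.2 FPKM at 93 nt in Snord91a, 0.164 to 0.226 FPKM at 265 nt in Scarna6 and 0.0757 to 0.103 FPKM at 414 nt in Scarna2. From the lowest to the highest the ratio was 570. The median worth was 31.3 FPKM up to 80 nt, 6.92 FPKM at 81 to 100 nt, 1.43 FPKM above that and up to 150 nt, and 0.191 FPKM above 150 nt. A list ordered by FPKM therefore places a Snord gene with 1 fragment, such as Snord82 at 39.3 FPKM, above Scarna2 with 11 fragments at 0.986 FPKM.

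**Figure D1:**
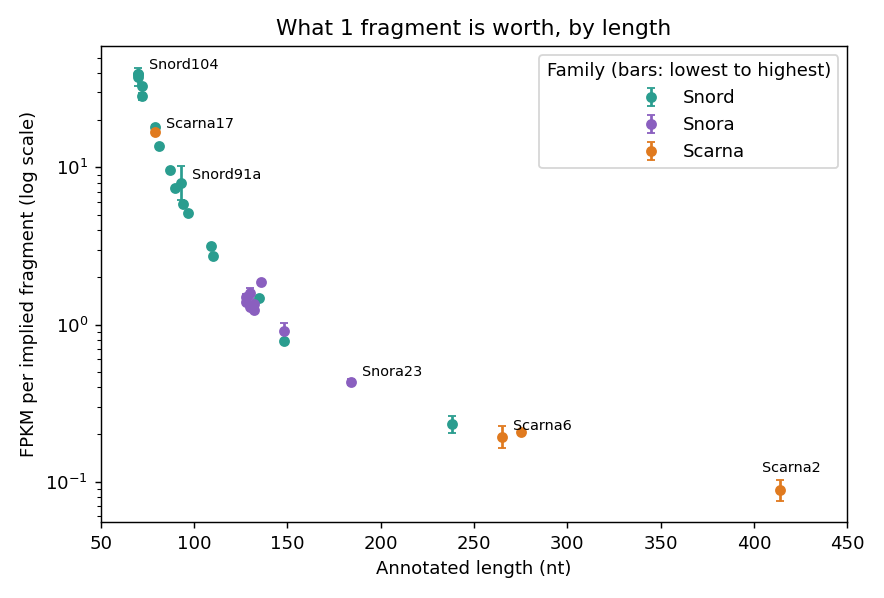
FPKM divided by the implied number of fragments (log scale) against annotated length in nucleotides, for the 30 members with a whole implied number; points are geometric midpoints and bars run from the lowest to the highest library. The worth of a fragment falls from 33.1 to 43.2 FPKM at 70 nt to 0.0757 to 0.103 FPKM at 414 nt.

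Across the libraries, 67 of the 149 members (45%) were above 0 in at least 1 library, against 61.8% of all genes. The other 82 were listed at 0 in all 8. Those at 0 in all 8 were 68 Snord, 11 Snora and 3 Scarna genes. A 0 at this coverage does not show that a gene was not expressed. Above 0 in all 8 libraries were 3 members (2.01%), Scarna2, Snora64 and Snora7a. Beside these, 41.3% of all genes, 74.4% of protein-coding genes and 17.6% of lincRNA genes were above 0 in all 8 libraries. Other short RNA classes were also sparse, with 0.22% of the 1363 snoRNA genes outside the rule, 0.145% of snRNA genes and 1.69% of miRNA genes. Above 0 in at least 1 library were 10.3%, 10.4% and 9.96% of these classes, well under the 45% of the members. Above 0 in all 4 WT libraries were 7 members, these 3 with Scarna13, Snora73a, Snora73b and Snord91a. In all 4 KO libraries there were 8, the same 3 with Scarna6, Snora65, Snora81, Snord21 and Snord47. No member was above 0 in all 4 libraries of a group and at 0 in all 4 of the other, a pattern that 0.0707% of all genes showed for WT and 0.0163% for KO.

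A stricter reading removed most of the members held in every library of a group. At 1 FPKM or more, 46 members (30.9%) appeared in some library, a share near the 28.6% of all genes. At that limit 1 member, Snord91a, appeared in all 4 WT libraries, but none in all 4 KO libraries. At 10 FPKM or more 11 members (7.38%, against 13.5% of all genes) appeared, none of them in all libraries of a group. With at least 0.5 implied fragments, 46 members (30.9%, against 56.9% of all genes) appeared in some library and 24 of these in 1 library only. At that limit 3 members held in all 4 WT libraries (Scarna2, Scarna13 and Snord91a), 2 in all 4 KO libraries (Scarna2 and Scarna6) and 1 in all 8, Scarna2. Snora7a, above 0 everywhere, peaked at 1.32e-05 FPKM and never reached 0.05 fragments. Snora64 passed 0.5 fragments in 2 of 8 libraries.

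**Figure D2:**
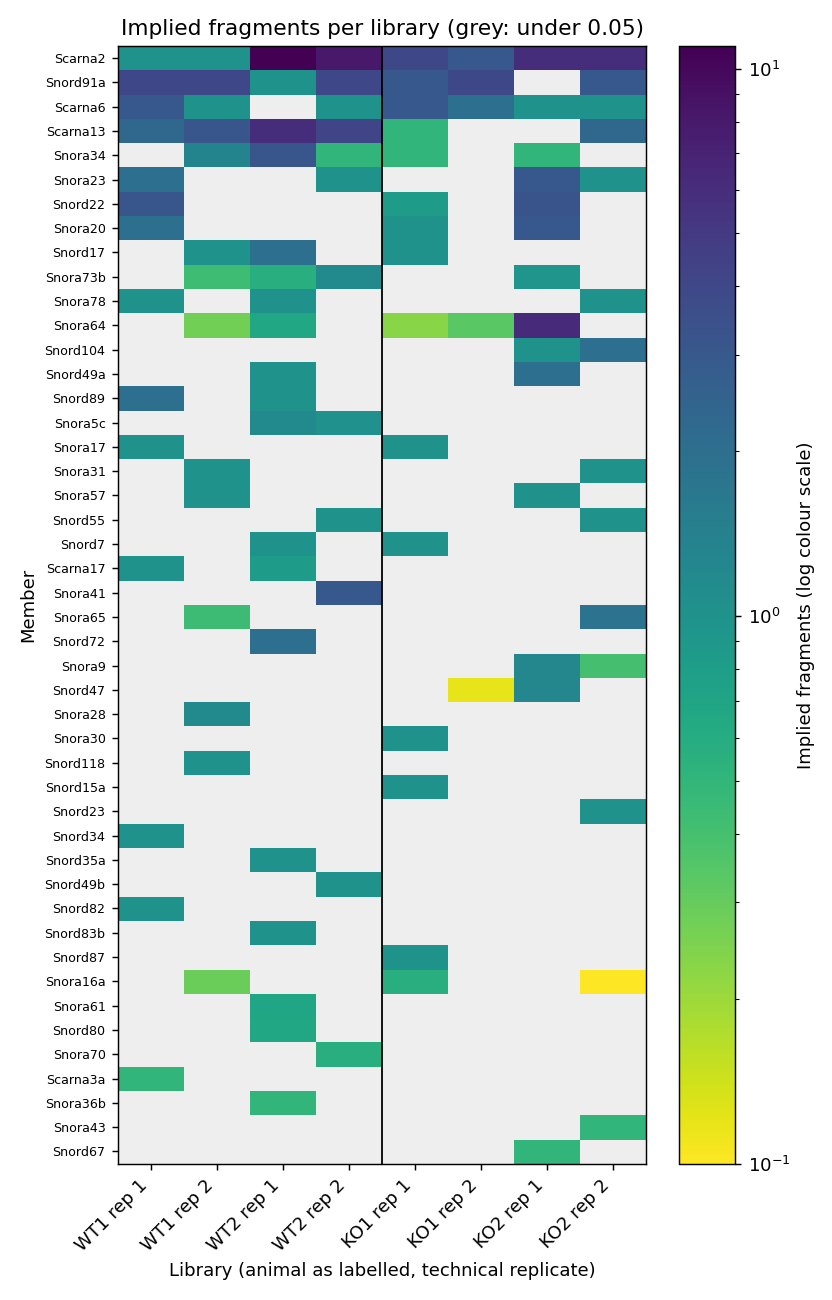
Implied fragments (log colour scale) of the 46 members with at least 0.5 fragments in some library, in each of the 8 libraries; grey marks values under 0.05 and the black line parts WT from KO as labelled. Scarna2 is filled in all 8 columns, Snord91a and Scarna6 in 7 each, and 24 members reach 0.5 fragments in 1 column only.

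The technical replicates of an animal disagreed about most of the members they listed. In WT1, 12 members were above 0 in both libraries and 27 in 1 only, so 30.8% of those seen were seen again. The corresponding numbers were 12 and 31 in WT2 (27.9%), 9 and 18 in KO1 (33.3%) and 14 and 24 in KO2 (36.8%). Among all genes 85.0% to 85.4% were seen again, and among protein-coding genes 94.6% to 94.8%. Other short RNA classes also agreed poorly, so this is not particular to the members. The share was 17.1% to 30.8% for snoRNA genes outside the rule, 19.4% to 34.3% for snRNA and 44.9% to 50.5% for miRNA genes. With at least 0.5 fragments the members seen in both and in 1 library were 4 and 16 in WT1, 6 and 19 in WT2, 3 and 11 in KO1, and 4 and 18 in KO2. At 1 FPKM or more they were 1 and 17, 3 and 21, 1 and 10, and 2 and 15. At that limit 5.56% to 12.5% of the members seen were seen again.

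**Figure D3:**
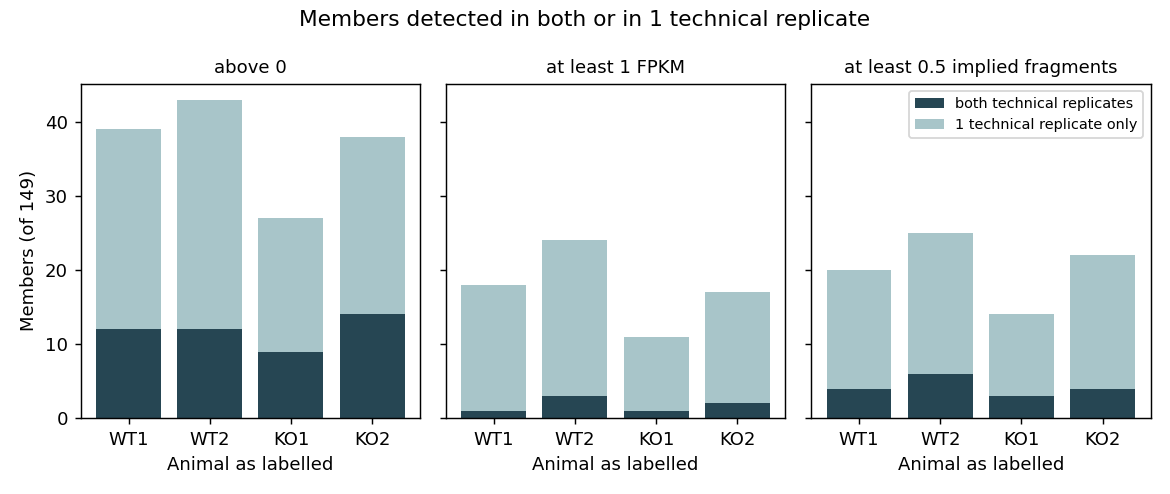
Number of members (of 149) detected in both technical replicates (dark) or in 1 only (light) of each animal, at 3 limits. Above 0, the dark part is 12, 12, 9 and 14 members and the light part 27, 31, 18 and 24; at 0.5 implied fragments the dark part is 4, 6, 3 and 4.

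Above 0 in both libraries of at least 1 animal were 22 members, 3 of them in 4 animals, 7 in 3 animals, 2 in 2 animals and 10 in 1 animal. The 7 in 3 animals were Scarna6, Snord91a, Snora65, Snora73a, Snora81, Snord21 and Snord47, and the last 5 of these never had 0.5 fragments in both libraries of an animal. With at least 0.5 fragments 9 members qualified in at least 1 animal. Scarna2 did so in all 4 animals, Scarna6 in all but WT2, Snord91a in all but KO2, and Scarna13 in WT1 and WT2. Snora73b, Snora5c and Snora34 did so in WT2 only, and Snora23 and Snord104 in KO2 only. The number of members above 0 in both libraries was 12 ± 0 per WT animal and 11.5 ± 3.54 per KO animal (SD, n = 2), a difference of -0.5 (exact two-sided permutation test, p = 1). Counted in at least 1 library, it was 41.0 ± 2.83 in WT and 32.5 ± 7.78 in KO, a difference of -8.5 at p = 0.333 in the exact permutation test, the smallest value that 2 against 2 animals allow. KO1 was lowest by either count, at 9 and 27. Its second library held 12 members above 0 and 9.4 implied fragments over all members, against 24 to 31 members and 18 to 36.7 fragments in the other libraries.

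Among the small Cajal body RNAs, Scarna2 (ENSMUSG00000088185) was the only one with fragments throughout. It is a long RNA that lies outside any same-strand host and, as background, guides modification of a spliceosomal RNA. It stood at 0.0811, 0.0954, 0.986 and 0.709 FPKM in the WT libraries (WT1 then WT2) and 0.303, 0.309, 0.509 and 0.534 FPKM in the KO libraries (KO1 then KO2). The implied fragments were 1, 1, 11 and 8, then 4, 3, 6 and 6. The technical replicates lay close together and the WT animals far apart, with both KO animals between them. Its difference was -0.01 on the log2(FPKM + 1) scale (SE 0.26, limma adjusted p = 0.993).

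Scarna6 (ENSMUSG00000089281), which holds both a C and a D box and lies in an intron of the autophagy gene Atg16l1, was listed at 0.524, 0.208, 0 and 0.191 FPKM in the WT libraries, against 0.491, 0.451, 0.18 and 0.191 FPKM in KO libraries. These values rest on 0 to 3 fragments, the groups overlap, and it did not reach the 0.5 FPKM in 2 animals needed for the test. Scarna13 (ENSMUSG00000088789), which ends in the terminal ACA and lies in an intron of the non-coding Snhg10, was listed at 0.488, 0.771, 1.24 and 0.886 FPKM in the WT libraries, against 0.152, 0, 0 and 0.532 FPKM in KO libraries. The implied fragments were 2.23, 3.15, 5.98 and 4.13 in WT and 0.5, 0, 0 and 2.23 in KO. Each WT animal lay above each KO animal, while the highest KO library exceeded the lowest WT library. Scarna17 (ENSMUSG00000088689, chromosome 18, 74778391 to 74778469, minus strand, 79 nt) gave 16.8, 0, 23.8 and 0 FPKM in the WT libraries, while all 4 KO libraries were listed at 0. Both values came from first libraries and imply 1 and 0.84 fragments. Of the other 5 Scarna genes, Scarna3a reached 1.00 FPKM in the first library of WT1 on 0.5 fragments, Scarna10 peaked at 1.52e-31 FPKM, and 3 were at 0 throughout.

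Among the Snord genes, Snord91a (ENSMUSG00000077493) had the most fragments. It lies in an intron of Tsr1, which encodes a maturation factor of the small ribosomal subunit. Its WT libraries gave 25.7, 35.9, 6.21 and 27.6 FPKM and its KO libraries 19.7, 41.0, 0 and 21.5 FPKM, on 4, 4, 1 and 4 and then 3, 4, 0 and 3 fragments. The groups overlapped, the lowest library was a first library in each group (WT2 and KO2), and the difference was -0.32 (SE 0.52, limma adjusted p = 0.817). Snord22, an RNA needed for ribosomal RNA processing whose locus lies within an annotated exon of its non-coding host Snhg1, stood at 6.58 FPKM in the first library of WT1 and at 2.33 and 6.32 FPKM in the first libraries of KO1 and KO2, with 1.68e-09 FPKM or 0 in the other 5. Snord17, at 238 nt the longest Snord gene, stood at 0.261, 0.475 and 0.205 FPKM in 3 libraries on 1, 1.99 and 1 fragments.

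Other Snord genes reached high FPKM on 1 or 2 fragments. Snord104 was listed at 33.1 and 86.1 FPKM in KO2, on 1 and 1.99 fragments, and at 0 in the other 6 libraries. Snord49a, from an intron of the non-coding host 2410006H16Rik, stood at 53.9 FPKM in the first library of KO2 and 29.6 FPKM in the first library of WT2, with 0 in the second library of both. Snord82, in an intron of the nucleolin gene Ncl, and Snord34, in an intron of the ribosomal protein gene Rpl13a, were each at 39.3 FPKM in the first library of WT1 on 1 fragment, and at 0 in the other 7. Snord49a, Snord82 and Snord34 had the highest FPKM opposite a 0 in the technical partner. Snord35a and Snord33, neighbours of Snord34 in Rpl13a that have been tied to lipotoxic stress, reached 7.40 and 2.63 FPKM in the first library of WT2 alone, on 1 and 0.06 fragments. Snord118, the U8 RNA of large-subunit ribosomal RNA maturation, appeared at 1.47 FPKM on 1 fragment in the second library of WT1, and Snord13 (U13) in no library.

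Among the Snora genes none held at 0.5 fragments in all libraries of a group. Snora64 (ENSMUSG00000077709), within an annotated exon of the ribosomal protein gene Rps2, ranged over 6.01e-16, 1.11, 1.75 and 0.00899 FPKM in WT and 0.636, 1.18, 9.06 and 0.0192 FPKM in KO libraries. The value of 9.06 FPKM implies 6.28 fragments while that of its technical partner rounds to 0. Snora23, in an intron of the importin gene Ipo7, was listed at 0.827, 0, 0 and 0.449 FPKM in the WT libraries, against 0, 0, 1.25 and 0.448 FPKM in KO. Snora73b, a U17 RNA of the Snhg3 host that acts in small-subunit ribosomal RNA processing, was listed at 4.7e-42, 0.344, 0.377 and 0.635 FPKM in the WT libraries, against 0.0418, 0, 0.538 and 0 FPKM in KO. Its copy Snora73a, partly in an exon of the same host, was above 0 in 7 libraries yet exceeded 0.05 fragments in 1. Snora20 stood at 2.85 FPKM in the first library of WT1 and 1.39 and 4.06 FPKM in the first libraries of KO1 and KO2, and at 0 in the other 5. Each of these RNAs had libraries of both groups at or near 0.

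Longer members were detected more often. At least 0.5 fragments in some library were found for 8 of 46 members up to 80 nt (17.4%), 7 of 42 at 81 to 100 nt (16.7%), 25 of 51 above that and up to 150 nt (49.0%) and 6 of 10 above 150 nt (60.0%). By family these were 21 of 98 Snord (21.4%), 20 of 42 Snora (47.6%) and 5 of 9 Scarna genes (55.6%). The Snord genes of 81 to 100 nt include the 17 repeated Snord116l genes, none at 0.5 fragments, of which 14 share their exact sequence with other genes. They lower the shares of that length class and of the Snord family. Family and length go together, with median lengths of 84, 132 and 140 nt, so their parts cannot be told apart here.

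The place of a member in its host went with the kind of value it was given. In the annotation 76 members lay in an intron of a same-strand host, 55 within an annotated exon of a host transcript, 9 partly in an exon and 9 outside any host. Of the intronic members' values with at least 0.05 fragments, 49 of 65 (75.4%) were whole numbers, as were 16 of 19 (84.2%) outside hosts. Within exons the share was 0 of 29, and a further 66 of the 95 values above 0 there were under 0.05 fragments, against 2 of 67 in introns. The near-zero values were thus mostly those of members inside host exons, where reads of host and member cannot be separated. This includes Snora64, Snora7a, Snord47 and Snord22.

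The comparison of KO with WT could be made for 17 members that had at least 0.5 FPKM in 2 animals; the other 132 were not tested. Of the 17, 10 had 0.5 fragments in 2 libraries or fewer. Of all 16667 genes tested 9 (0.054%) passed the threshold, an adjusted p under 0.05 in limma, all lower in KO and none (0%) higher. Among the 9 were 2 blood markers and 1 member, Scarna17, lower in KO, and no member was higher. Scarna17 met the minimum only through its WT animals, and with no minimum its adjusted p in limma was 0.355. At an unadjusted p under 0.05 stood 5 of 17 members, 4 lower and 1 higher, against 15.5% of all genes. Both KO animals lay below both WT animals in 4 members (30.7% of all genes) and above them in 2 (18.4%), and the animals of the other 11 overlapped. Scarna17, Snord89 and Scarna13 met the minimum in WT animals only and Snord47 in KO animals only, so the minimum partly fixed these counts and directions, and nothing is read from them.

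Scarna17 averaged 8.42 and 11.9 FPKM in the WT animals and 0 in both KO animals, 10.2 ± 2.46 against a listed 0 (SD, n = 2). The difference was -3.46 on the log2(FPKM + 1) scale (SE 0.16, 95% interval -3.87 to -3.05, limma adjusted p = 0.0372). The spread between animals was small, while the libraries of each animal were at 16.8 and 0 and at 23.8 and 0 FPKM. With all 8 libraries as units the difference was -2.20 and the adjusted p 0.424, and in the second libraries alone the gene could not be tested, being 0 in all 4. Without WT1, without WT2 or without KO1 it did not pass (limma adjusted p = 0.0644, 0.0580 and 0.0615), nor without the second library of WT2 (0.0978). Without the first library of WT1 or of WT2 too few animals were above the minimum for a test.

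The other members with the smallest p-values did not pass. Snord89, a C/D RNA in an intron of Gm15832, was listed at 5.52, 0, 2.73 and 0 FPKM in the WT libraries, against 0 in KO libraries, on 1.99 and 1 fragments in the first libraries (difference -1.58, SE 0.23, limma adjusted p = 0.0996, and 0.0226 without the second library of WT2). Snord47, a C/D RNA within an exon of the growth-arrest transcript Gas5, was listed at 0, 0, 0.0166 and 4.91e-12 FPKM in the WT libraries, against 9.65e-06, 11.4, 38.1 and 4.55 FPKM in KO libraries. Its 4 KO values imply 0, 0.12, 1.24 and 0.04 fragments, which within an exon are not counts (difference 3.61, SE 0.55, limma adjusted p = 0.105). With KO1 or KO2 left out the limma adjusted p was 0.0108 and 0.0189, but then 1 KO animal remains, which is assumed to vary like the WT animals, and these stood at 0 and 0.0083 FPKM. Snora34, an H/ACA RNA in an intron of Kansl2, was listed at 0, 2.69, 4.34 and 1.15 FPKM in the WT libraries, against 1.02, 0, 1.02 and 0 FPKM in KO (difference -0.97, SE 0.23, limma adjusted p = 0.177, or 0.0337 when the first library of WT1 was left out). Scarna13, given above, differed by -0.65 (SE 0.15, limma adjusted p = 0.179). In each of these 4 the libraries of the groups overlapped or met at 0 or near it.

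**Figure D4:**
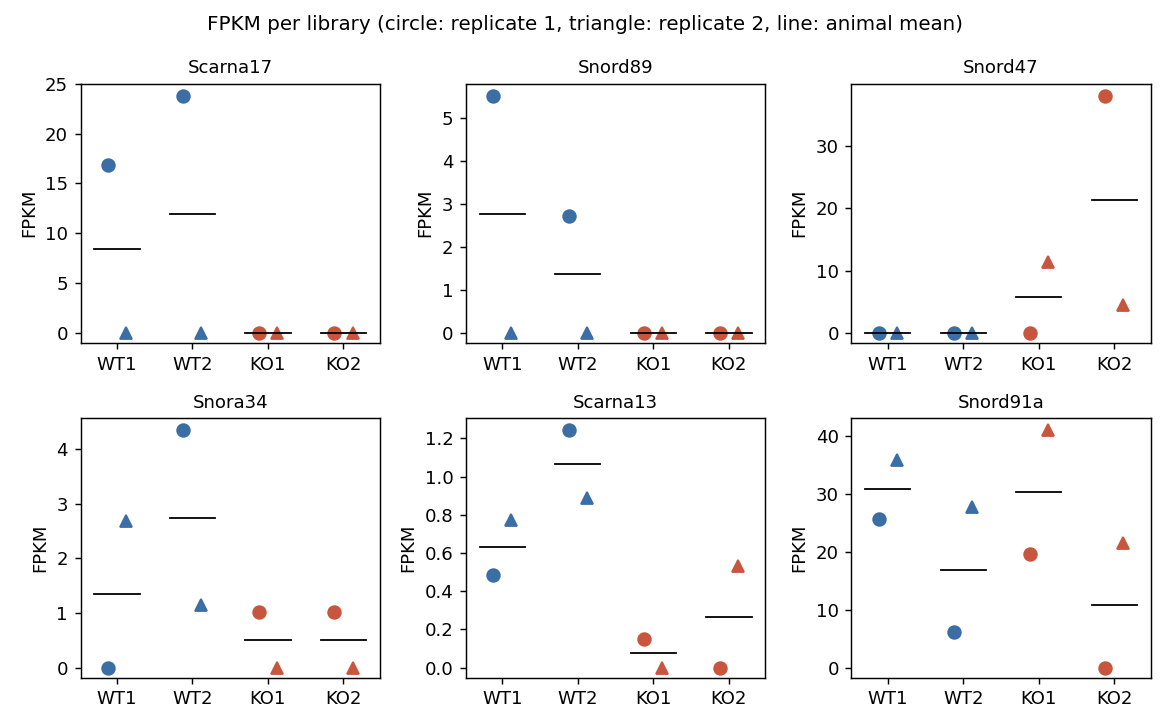
FPKM in each library of 6 members; circles are first and triangles second technical replicates, lines are animal means, blue is WT and red is KO as labelled. The replicates of an animal are often at 0 and at a high value, as for Scarna17 at 16.8 and 0 and at 23.8 and 0 FPKM in WT, and Snord91a overlaps between the groups.

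The remaining tested members had adjusted p-values of 0.437 (Snora64) to 0.995 (Snord55) in limma. Snora64 differed by 0.93 (SE 0.50) and Snora78, at 1.43, 0, 1.44 and 0 FPKM in WT and 0, 0, 0 and 1.56 FPKM in KO, by -0.36 (SE 0.28). In the first libraries alone Snora78 passed at an adjusted p of 0.0404 in limma. There it met the minimum only in WT, on 1 fragment per animal, so nothing is read from this. Snora17, Snora31, Snord7 and Snord55 had 1 fragment in 1 library of each group, and a difference near 0 with a wide error. Snord7, in an intron of AA465934, was at 4.99 FPKM in the first library of WT2 and at 5.20 FPKM in the first library of KO1, giving 0.02 with an SE of 0.82. Snord49a gave 0.41 with an SE of 1.98. Such errors do not show that the levels were alike.

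Host genes were measured far more firmly than their RNAs. The 140 members with a same-strand host share 89 hosts, with 88 members in protein-coding hosts and 52 in non-coding ones. Of the 89 hosts 88 were tested and 0 passed the threshold in limma, 8 with an unadjusted p under 0.05, in a background of 0.054% of genes called and 15.5% unadjusted. There were 38 higher and 50 lower in KO, with a median difference of -0.01. The median host stood at 27.4 FPKM for the 39 members with 0.5 fragments in some library and at 41.3 FPKM for the 101 without. A host counts here once per member, so Snhg14 enters the 101 as host of the 17 Snord116l genes. No order of the hosts is read from these medians. Of 47 members whose host exceeded 100 FPKM, 34 had no library at 0.5 fragments. That share was near the one over all members with a host, 101 of 140.

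Values of single hosts are set beside those of their members here. Hspa8, the constitutive heat-shock chaperone, averaged 700 ± 15.5 FPKM over the WT and 754 ± 39.9 FPKM over the KO animals (SD, n = 2), and none of its 3 RNAs of the Snord14 group reached 0.5 fragments. Rpl13a stood at 582 ± 12.9 and 581 ± 23.6 FPKM, and 2 of its 4 members reached 0.5 fragments, each in 1 library. Gas5 stood at 169 ± 1.93 and 154 ± 13.8 FPKM (difference -0.13, SE 0.07, limma adjusted p = 0.413), against the difference of 3.61 given to its member Snord47. Tsr1, host of Snord91a, stood at only 11.6 ± 0.505 and 11.9 ± 1.28 FPKM. Atg16l1, host of Scarna6, stood at 18.1 ± 0.555 and 17.0 ± 0.0346 FPKM and Snhg10, host of Scarna13, at 3.96 ± 0.415 and 3.60 ± 0.581 FPKM. Gm15832, host of Snord89, stood at 0.670 ± 0.037 and 0.673 ± 0.0781 FPKM. The hosts of Snora34 and Snora64 differed as little, Kansl2 by 0.01 (SE 0.05) and Rps2 by 0.06 (SE 0.06).

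**Figure D5:**
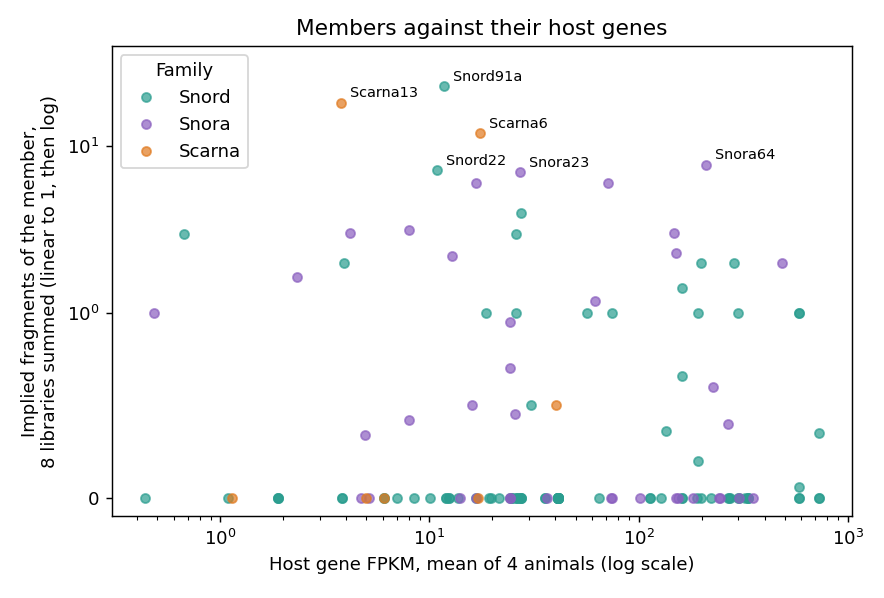
Implied fragments of each member summed over 8 libraries (linear to 1, then log) against the mean FPKM of its host gene (log scale), coloured by family. Members with the most fragments, such as Snord91a and Scarna13, sit over hosts of 11.6 and 3.96 FPKM in WT. Many members lie at 0, over hosts above 100 FPKM as over lower ones.

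A pair of loci known from brain imprinting and editing gave no member signal. The 17 Snord116l genes are copies of the C/D RNA of the imprinted Prader-Willi region and lie in introns of Snhg14. They have 4 distinct sequences, and 14 of the 17 share their exact sequence with other annotated genes, so their sequence cannot assign a read to 1 copy. All 17 were at 0 in all 8 libraries, while Snhg14 averaged 45.5 ± 2.90 FPKM over the WT and 37.1 ± 1.82 FPKM over the KO animals (difference -0.28, SE 0.06, limma adjusted p = 0.164). Snora35 lies in an intron of the serotonin receptor gene Htr2c and was at 0 in all 8 libraries. Htr2c, which choroid plexus also expresses strongly, stood at 19.5 ± 3.06 and 8.48 ± 4.34 FPKM (difference -1.19, SE 0.33, limma adjusted p = 0.219), beside choroid plexus markers that were all lower in KO.

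The proteins that bind, build and trim these RNAs were examined in lists of known genes, of which none passed the threshold in limma in either direction. The C/D core proteins Fbl (the methylase fibrillarin), Nop56, Nop58 and Snu13 averaged 19.5, 37.0, 27.5 and 61.4 FPKM over the WT animals and 19.6, 34.4, 25.2 and 64.6 FPKM over the KO animals. Of these 4, 2 were higher and 2 lower, with a median difference of -0.05. The H/ACA core proteins Dkc1 (the pseudouridine synthase dyskerin), Nhp2, Nop10 and Gar1 averaged 12.6, 23.4, 22.8 and 17.1 FPKM and 12.6, 23.2, 24.2 and 15.7 FPKM, 1 higher and 3 lower with a median of -0.01. Over all genes the median was -0.02, with 6993 higher and 9674 lower. Machinery for these RNAs was measured at 12.6 to 64.6 FPKM in libraries where most of the RNAs themselves were at 0.

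Assembly factors were 6 higher and 7 lower of 13 tested (median -0.01), led by the H/ACA chaperone Naf1 at 6.18 ± 0.037 FPKM in WT and 5.25 ± 0.273 FPKM in KO (difference -0.20, SE 0.06, limma adjusted p = 0.261). Cajal body and SMN complex genes were 8 higher and 9 lower of 17 (median -0.01), led by the SMN complex member Gemin4 (difference 0.52, SE 0.17, limma adjusted p = 0.263), with the scaffold Coil at 5.73 and 5.94 FPKM and the Cajal body targeting factor Wrap53 at 4.67 and 4.16 FPKM. Trimming and capping factors were 6 higher and 7 lower of 13 (median -0.04), with the exosome subunit Exosc3 at 6.22 and 5.23 FPKM (adjusted p = 0.259 in limma). Non-coding host genes were 5 higher and 14 lower of 19 (median -0.12), with Snhg14 as given above and Snhg11 at 190 and 158 FPKM (adjusted p = 0.0981 in limma). Genes of the Prader-Willi domain were 3 higher and 3 lower of 6 tested (median -0.04), and nucleolar genes of ribosomal RNA synthesis 10 and 10 of 20 (median -0.003), with the polymerase subunit Polr1a at 11.6 and 8.99 FPKM (adjusted p = 0.211 in limma).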

How the data were processed

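RNA of hippocampus was extracted with Trizol and libraries were made from 1 ug of total RNA, per the labels' protocols; neither a size selection nor a strand setting is stated, so reads of a member and of a gene over it cannot be told apart. Per the file headers the authors deposited 1 table per library with the FPKM of each gene, its confidence limits and a status. Named in the submitters' processing notes are mm10, Bowtie 1 and HISAT; the program that gave the FPKM is not given in the sources used here. Because FPKM are scaled by length, a short RNA reaches a high value from few fragments.

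Implied fragments were computed as the square of 2 times FPKM over the distance to the upper limit, and rounded to 2 decimals before the limit of 0.5 was applied. Rows that repeat a gene identifier (55241 rows for 55188 genes) were summed. Technical replicates were averaged per animal, a minimum of 0.5 FPKM in 2 animals was set, and log2(FPKM + 1) was tested over 16667 genes with limma 3.58.1 in R 4.3.3 (trended variance, Benjamini-Hochberg, threshold 0.05), which understates changes of low genes. Adjusted p-values are from limma. The procedure was also run on simulated data with smoothly varying values and with changes placed only in genes at higher levels. Members at 0 or 1 fragment are unlike these, so that run does not bear on their calls. Gene coordinates were those of GENCODE M21, which gave types and sequences. The host of a member was chosen from these coordinates. It was the same-strand gene whose span holds the member, and where several did, the shortest was taken.

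Members, lists and limits were chosen with earlier results of these data known. Genes named were Ptk2b, the members past the threshold or with the smallest p, those above 0 in all libraries, those with the highest FPKM opposite a 0, their hosts, and of each list some of the 4 genes with the smallest p; other members, Coil and the core proteins were named outside this rule. Alternatives were other limits, pseudocount, scaling, single technical replicates, libraries as units, the replicate number as a block, and leaving out animals or libraries.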

Additional observations from a re-analysis of the deposited data

Results flagged for a closer look

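In 17 of 38 groups of 4 libraries the highest library stood apart from the other 3 by more than Dixon's 95% limit. Chance flags about 1 in 20 groups, and the test assumes values that vary smoothly, which 0 and 1 fragment do not. In 16 of the 17 the other libraries were at or near 0, so the gap was the whole range. Members with such a library in both WT and KO were Snord49a (29.6 FPKM in the first library of WT2 and 53.9 FPKM in the first library of KO2), Snora65 (1.73 FPKM in WT1 and 3.97 FPKM in KO2, both second libraries) and Snora31 (1.72 FPKM in WT1 and 1.46 FPKM in KO2, both second libraries). The same held for Snord7 (4.99 FPKM in WT2 and 5.20 FPKM in KO1, both first libraries), Snora17 (1.26 FPKM in WT1 and 1.22 FPKM in KO1, both first libraries) and Snord55 (17.8 FPKM in WT2 and 18.7 FPKM in KO2, both second libraries).

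Among the WT libraries alone, Snora20 stood apart at 2.85 FPKM and Snord22 at 6.58 FPKM, both in the first library of WT1, and Snord47 at 0.0166 FPKM in the first library of WT2. Among the KO libraries alone, Snora78 stood apart at 1.56 FPKM in the second library of KO2 and Snora64 at 9.06 FPKM in its first library.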

How the results depend on the processing

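The count of members past the threshold was 1 with the settings given. It was 2 in the first technical replicates alone (Scarna17 and Snora78, which met the minimum there only in WT) and 0 in the second alone. It was also 0 with no minimum on FPKM, with all 8 libraries as units and without the variance trend. It ranged from 0 to 2 when an animal was left out (the spread then comes from the group that keeps 2 animals) and from 0 to 2 when a single library was left out, and with WT1 or WT2 left out it was 0. The member called also changed: without KO1 it was Snord47, without the first library of WT1 Snora34 and without the second library of WT2 Snord89, while without KO2, or without the first library of KO1 or of KO2, Snord47 and Scarna17 passed together. Another pseudocount, a minimum of 1 FPKM and both other scalings left Scarna17 as the member called. With the replicate number as a block it stayed at 1, Scarna17; same-numbered animals share only a number here (correlation of their deviations 0.107 over 16667 genes). Members above 0 in all 8 libraries, 3 as counted, were 0 at 1 FPKM, 0 at 10 FPKM, 0 by a lower confidence limit above 0 and 1 at 0.5 implied fragments, and 4 to 7 with an animal left out. For the 4 WT libraries the count of 7 became 1, 0, 0 and 3 at these limits and 12 with either animal left out. For the 4 KO libraries the count of 8 became 0, 0, 0 and 2, and 9 without KO2, 14 without KO1. Without KO1 the difference in members per animal turned from -0.5 to 2.0, and without KO2 it was -3.0. Values seen in 1 technical replicate only, 100 over the animals, were 63 at 1 FPKM, 15 at 10 FPKM, 1 by the lower confidence limit and 64 at 0.5 implied fragments. At this depth 40 of the 117 values with at least 0.05 fragments rested on 1 fragment.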

Other observations

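The implied fragments of all members summed to 24.8, 36.7, 19.6 and 31.0 in the first libraries of WT1, WT2, KO1 and KO2 and to 18, 27.3, 9.4 and 22.8 in the second, higher in the first in all 4 animals. The number of members above 0 did not follow this in WT1, with 24 in the first and 27 in the second library, while it was 31 and 24 in WT2, 24 and 12 in KO1 and 27 and 25 in KO2. Of the 17 tested members 7 were at 0 in all 4 second libraries, Scarna17 and Snord89 among them, and 2 were at 0 in all 4 first libraries. The implied total over all genes was 13.6, 12.6, 14.1 and 12.9 M fragments in the first libraries and 12.1, 12.8, 11.3 and 12.5 M in the second, so in WT2 the order of the totals was the opposite. The part of depth in this was not tested. A further 12 members were above 0 only at values under 0.05 fragments.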
